A study of Homo sapiens with 3 samples.

Results

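RNA from cells that had been given doxycycline for 3 days to knock down HRD1 was compared with RNA from the same kind of cells at day 0. Genes were kept if they were protein-coding, had a mean of at least 100 uniquely placed gene reads over the day 0 and day 3 libraries, and had at least 90% of their total gene reads uniquely placed. Of 58243 genes in the deposited tables, 8076 met these conditions and are called the tested genes. Of 19818 protein-coding genes, 9690 fell under the read minimum and 2052 had too few uniquely placed reads. At the read minimum, C1orf53 was just inside with a mean of 100.0 reads and a log2 ratio of 0.42, and ZNF114 was just outside with 99.5 reads and a log2 ratio of -0.06. At the uniqueness limit, ENDOG was just inside with 90.02% and a log2 ratio of 0.24, and PRKAR1A was just outside with 89.99% and a log2 ratio of -0.04.

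All libraries came from cells labelled as LoVo, a line from a human colorectal carcinoma, whose short hairpin RNA against HRD1 is switched on by doxycycline through a Tet-On promoter system. The series set out to ask how ER stress caused by losing HRD1 alters gene expression. The day 0 group had the hairpin construct and no days of doxycycline, the day 3 group had 3 days of doxycycline at 1 µg/ml, and a day 5 group had 5 days. Each group was 1 library. The labels do not say whether the line was a single clone. No library without the HRD1 hairpin or with another hairpin was compared, so knockdown and doxycycline itself cannot be told apart. With 1 library a day, time in culture and differences between cultures or preparations cannot be told apart from them either.

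HRD1, encoded by SYVN1, is a ubiquitin ligase in the membrane of the endoplasmic reticulum (ER). With its partner SEL1L it marks misfolded ER proteins for transport to the cytosol and destruction by the proteasome, a route called ER-associated degradation (ERAD). Misfolded proteins in the ER activate the sensors IRE1, PERK and ATF6, whose unfolded protein response (UPR) works through the transcription factors XBP1, ATF4 and cleaved ATF6 to raise chaperones, ERAD proteins and amino acid metabolism genes.

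Uniquely placed gene reads numbered 19003207 at day 0, 19559795 at day 3 and 22549242 at day 5, which were 89.2%, 88.6% and 87.6% of all gene reads. Levels are given as CPM, the reads of a gene relative to the TMM-scaled library size, and ratios as log2 of day 3 over day 0 with 0.5 reads added to each count. Each ratio has a 95% exact conditional (Clopper-Pearson) interval. With 1 library a day there was no replicate error and no test between days was made: the intervals cover counting error only, and reads without molecular identifiers are not independent molecules. The interval reached a median of 0.34 to either side of the log2 ratio for genes with 100 to 200 reads and 0.089 for genes with 1000 or more. A gene is called higher or lower when its ratio was at least 1.5-fold and its interval excluded 1. In such bulk RNA, fewer cells of a type and less RNA per cell cannot be told apart.

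The targeted gene was lower in the library labelled day 3. SYVN1 (chromosome 11, 65121780 to 65134533 on GRCh38) had 1210 unique reads at day 0, 646 at day 3 and 704 at day 5. These corresponded to 63.1, 34.0 and 30.6 CPM, so both doxycycline libraries were below the untreated one. At day 3 the level was 53.9% of that at day 0 (log2 ratio -0.89, 95% interval -1.03 to -0.75). Exon reads of SYVN1 went from 1167 to 630 (log2 ratio -0.88), and its few intron reads went from 43 to 16 (log2 ratio -1.39, interval -2.34 to -0.56). These intron reads are under the mean of 50 required for introns below. Over the genes that met it, the median intron log2 ratio was itself -0.30. The gene's span overlaps another gene in the tables, and whether the counting used strand is not stated.

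Most tested genes differed little between days 0 and 3. Their log2 ratios had a median of 0.02, 4342 of the 8076 were above day 0, and 98.8% of genes were within 1.5-fold. There were 40 genes called higher (0.495% of 8076) and 59 called lower (0.731%). At 2-fold, 1 gene was higher (AGR2, 0.0124%) and 2 were lower (ALPP and PECAM1, 0.0248%). The split between directions moved with the scaling: library totals without TMM gave 22 higher and 89 lower, and the authors' TPM values gave 13 higher and 102 lower, with a median over all tested genes of -0.08. For 12 genes the whole interval lay past 1.5-fold: AGR2, HSPA5, HERPUD1 and MT1E among the higher, and ALPP, PECAM1, ZNF280C, RIPOR3, ONECUT2, SYVN1, SHISA2 and KIF14 among the lower. Counting exon reads alone, 55 of 7872 genes with a mean of at least 100 exon reads were higher (0.699%) and 45 lower (0.572%).

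**Figure D1:**
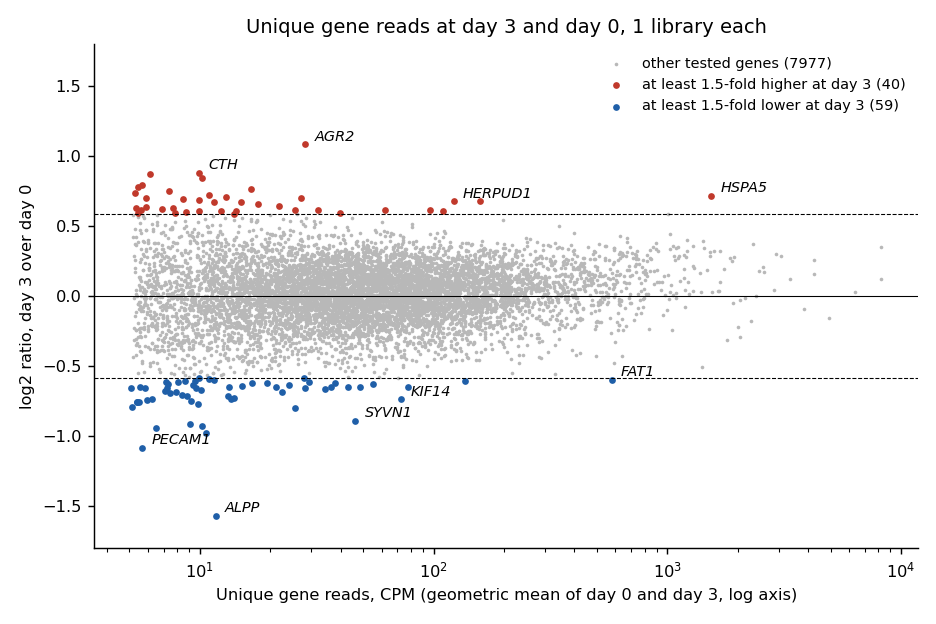
Each point is 1 of the 8076 tested genes, with its unique-read level in CPM (geometric mean of day 0 and day 3, log axis) against its log2 ratio of day 3 over day 0; dashed lines mark 1.5-fold. The 40 higher genes (red) and 59 lower genes (blue) sit at the edges of a cloud centred on 0.02, with AGR2 highest at 1.08 and ALPP lowest at -1.57.

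ER chaperone genes held several of the highest ratios among strongly expressed genes. HSPA5 encodes BiP, the main Hsp70 chaperone of the ER lumen. It had 23111, 37606 and 38084 unique reads at days 0, 3 and 5, or 1206, 1980 and 1654 CPM. Its level at day 3 was 1.64-fold that at day 0 (interval 1.62 to 1.67), and the day 5 level lay between the other 2. HSP90B1, the ER member of the Hsp90 family, had 15769 reads at day 0 and 23404 at day 3 (log2 ratio 0.58), just under the 1.5-fold limit. SDF2L1, a partner of ER J-domain proteins, had 958, 1450 and 1267 reads (log2 ratio 0.61 at day 3). DNAJB9, a J-domain co-chaperone of BiP that restrains IRE1, had 136, 205 and 205 reads (log2 ratio 0.60, interval 0.29 to 0.93). Of 38 listed ER chaperone genes 30 were tested, and these 3 were called higher and 0 lower, where 0.495% of all tested genes were called higher. The median of the 30 log2 ratios was 0.18, against 0.02 over all tested genes, and 20 of the 30 lay above the all-gene median. After the trends on exon length and GC content described below were removed, the median of the 30 was 0.12. The lectin chaperones, which bind glycans of new proteins, had a median of 0.02 in 8 genes, from -0.27 to 0.33.

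Promoters with an ER stress response element are shown because several genes with the highest chaperone ratios, and some genes level with day 0, hold the same letters. The element, abbreviated ERSE, reads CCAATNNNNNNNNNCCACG and is bound by NF-Y at one end and by ATF6 at the other. It was searched on both strands in the 250 bases before the transcription start of 27305 gene symbols in RefSeq (GRCh38.p14), and 0.0916% of promoters held it. Among the 8076 tested genes, 6712 had a promoter in that table and 11 of these (0.164%) held the element. Their median log2 ratio was 0.19 against 0.02 for the rest. Of the 11, 7 were above day 0, where 4342 of all 8076 tested genes were. The 5 highest of the 11 were HSPA5 (0.72), HSP90B1 (0.58), CRELD2 (0.56), XBP1 (0.49) and CALR (0.33). CRELD2 and CALR encode ER lumenal proteins, CALR being the lectin chaperone calreticulin. The same letters stood before genes near or below their day 0 level, among them CANX at 0.02, FICD at -0.02 (interval -0.27 to 0.22) and SYNPO at -0.27. Capitals below mark the matched ends of the element, which read CGTGG and ATTGG where it lies on the opposite strand, and each sequence is 5′ to 3′ on the gene's strand.
HSPA5, 250 bases, chr9:125241344-125241593, minus strand: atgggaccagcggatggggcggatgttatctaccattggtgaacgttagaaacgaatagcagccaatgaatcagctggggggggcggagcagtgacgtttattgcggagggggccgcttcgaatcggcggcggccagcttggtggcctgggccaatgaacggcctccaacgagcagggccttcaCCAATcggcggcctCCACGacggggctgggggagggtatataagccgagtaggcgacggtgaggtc
HSP90B1, chr12:103930211-103930239, plus strand: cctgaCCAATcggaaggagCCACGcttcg
HSP90B1, chr12:103930316-103930344, plus strand: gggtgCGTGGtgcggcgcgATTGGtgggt
CRELD2, chr22:49918549-49918577, plus strand: cctctCGTGGcgaactcggATTGGgccat
XBP1, chr22:28800598-28800626, minus strand: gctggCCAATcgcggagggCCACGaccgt
CALR, chr19:12938379-12938407, plus strand: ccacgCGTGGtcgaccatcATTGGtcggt
CANX, chr5:179698773-179698801, plus strand: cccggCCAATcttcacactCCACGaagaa
FICD, chr12:108515118-108515146, plus strand: aacaaCCAATgggagtggcCCACGgcgcg

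A second form of the element, ERSE-II, reads ATTGGNCCACG and was in 0.0659% of promoters on either strand. It stood before 10 tested genes, with a median log2 ratio of 0.19. The 2 highest were HERPUD1 (0.68) and SDF2L1 (0.61), whose sites are shown with the matched letters in capitals, and the lowest was ZNF143, at -0.17.
HERPUD1, chr16:56932020-56932040, plus strand: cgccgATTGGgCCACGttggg
SDF2L1, chr22:21642109-21642129, plus strand: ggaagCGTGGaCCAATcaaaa
Shorter elements did not separate their genes from the rest. The UPR element core TGACGTGG was in 0.780% of promoters, and its 69 tested genes had a median of 0.04. The C/EBP-ATF element TGATGNAAT, which ATF4 and its partners bind, was in 1.09% of promoters, and its 45 tested genes had a median of 0.03. A match is a description of letters in this window and not a measured binding site.

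AGR2 had the highest ratio of all tested genes. It encodes an ER protein of the disulfide isomerase family that helps mucins fold in secretory epithelia. It had 372, 782 and 935 unique reads at days 0, 3 and 5, or 19.4, 41.2 and 40.6 CPM, so that both doxycycline libraries lay at about the same level above day 0. The day 3 level was 2.12-fold that at day 0 (interval 1.87 to 2.41). Nearly all of this was in exons, with 354 and 765 exon reads at days 0 and 3 against 18 and 17 intron reads. All of its gene reads were uniquely placed, and its span on chromosome 7 (16791811 to 16833433) overlaps no other gene in the tables. Its relatives were closer to day 0: of 25 listed isomerases and oxidases 16 were tested. AGR2 alone was called higher and 0 were lower, where 0.495% and 0.731% of all tested genes were called. PDIA3, which works with the lectin chaperones, had a log2 ratio of 0.45, PDIA4 of 0.34 and ERP44, which retains ER proteins from the early Golgi, of 0.32. At the other end, TXNDC16 had a log2 ratio of -0.32. The median of the 16 genes was 0.15, or 0.11 with the length and GC trends removed.

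The ERAD genes did not move as a block. HERPUD1, which recruits substrates and partners to the HRD1 complex, had 1856, 2939 and 3059 unique reads at days 0, 3 and 5. Its day 3 level was 1.60-fold that at day 0 (interval 1.51 to 1.69), and its intron reads were 52 and 74 (log2 ratio 0.52, interval -0.01 to 1.06). Among 9 tested members of the ligase complex, HERPUD1 was called higher and SYVN1 lower, where 0.495% and 0.731% of all tested genes were. The median of the 9 was -0.04. FAM8A1, an HRD1 cofactor, had a log2 ratio of -0.30 (interval -0.54 to -0.06). Among 8 genes for extraction from the membrane, SELENOK, a selenoprotein that binds the p97 ATPase, was highest at 0.49, and the median was 0.11. RNF139, another ER ligase, had a log2 ratio of 0.38. Over the 27 tested genes of 33 listed, the median was 0.09, with 17 above and 10 at or below day 0. With the length and GC trends removed that median was 0.02, and the median over all tested genes was also 0.02.

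Of the UPR regulators, the tested transcription factors were above day 0 and the tested sensors were level with it. ATF4, the factor whose translation PERK signalling favours, had 5573, 7162 and 8068 unique reads at days 0, 3 and 5 (log2 ratio 0.38 at day 3, interval 0.32 to 0.43). XBP1, the mRNA that IRE1 splices, had 1314, 1829 and 1812 reads (log2 ratio 0.49, interval 0.39 to 0.59), counted without regard to splice form. ATF3, a stress factor downstream of ATF4, had 179, 264 and 288 reads (log2 ratio 0.57, interval 0.29 to 0.86). All 8 tested transcription factors of 14 listed were above day 0, with a median of 0.24 and none called at 1.5-fold. The 3 tested sensors of 4 listed had a median of -0.02 and lay between -0.03 and 0.00. PERK, encoded by EIF2AK3, had 72.0% of its reads uniquely placed and so was not tested. Its log2 ratio was 0.01 by unique reads and 0.08 by all gene reads. DDIT3, the gene of the stress factor CHOP, had 57.8% of its reads uniquely placed and so was not tested; its log2 ratio was 0.44 by unique reads and 0.68 by all gene reads. Copies or overlapping genes can exchange such reads, so that value is uncertain.

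Targets of ATF4 had the highest median of the stress lists. Of 40 listed genes 25 were tested, 22 were above day 0, 3 were called higher and 0 lower, against the same 0.495% called higher over all tested genes. Their median log2 ratio was 0.34, or 0.29 after the trends on exon length and GC content described below were removed. CTH, which makes cysteine from cystathionine, had 140, 256 and 273 reads at days 0, 3 and 5 (log2 ratio 0.88 at day 3, interval 0.58 to 1.19). SESN2, a stress-induced inhibitor of mTORC1, had 243, 410 and 440 reads (0.77, interval 0.54 to 1.00). CHAC1, which degrades glutathione, had 228, 360 and 324 reads (0.67, interval 0.43 to 0.92). In these 3 genes both doxycycline libraries were above the day 0 library in CPM. GDF15, a secreted stress hormone, had a log2 ratio of 0.55 (interval 0.32 to 0.78). By role, the 12 tested stress effectors had a median of 0.49, the 6 tested amino acid synthesis genes 0.32 and the 7 tested amino acid transporters 0.06. ASNS, asparagine synthetase, had 3.94% of its reads uniquely placed and a mean of 65.5 unique reads, and so was not tested. By all gene reads its log2 ratio was 0.86. SLC7A11, a listed gene with 32.4% of its reads uniquely placed, was also not tested and went the other way. The log2 ratio of SLC7A11 was -0.51 by unique reads and -0.30 by all gene reads.

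Genes that XBP1 is known to induce had a smaller shift. Of 29 listed genes 21 were tested, with a median log2 ratio of 0.20, or 0.16 with the length and GC trends removed. HERPUD1 and DNAJB9 were the 2 called higher, where 0.495% of all tested genes were. SEC61G and SEC61B, small subunits of the translocation channel, had log2 ratios of 0.36 and 0.35, and SRPRB, a subunit of the signal recognition particle receptor, had 0.35. The wider machinery for bringing proteins into the ER had 30 of 37 listed genes tested, with 26 above day 0 and none called. This machinery had a median of 0.17, or 0.12 with the length and GC trends removed. Its signal peptidase genes, which cut off the leader peptide, had a median of 0.28 in 4 genes. Vesicle coat and cargo receptor genes had a median of 0.10 in 37 tested of 44 listed, the highest being SEC13 at 0.30 and the lowest GOLGB1 at -0.25. The mRNAs that IRE1 can degrade had a median of -0.04 in 12 tested of 14 listed. The intervals of these 12 lay above day 0 in 5 genes and below it in 4, and the highest ratio was 0.35. Among them 1 was called lower, PDGFRB, where 0.731% of all tested genes were. PDGFRB, a growth factor receptor, had 130, 74 and 70 reads at days 0, 3 and 5 (log2 ratio -0.80 at day 3, interval -1.23 to -0.38). BLOC1S1, a listed gene with 59.6% of its reads uniquely placed, was not tested. Its log2 ratio was 0.49 by unique reads (interval 0.24 to 0.75) and 0.46 by all gene reads.

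**Figure D2:**
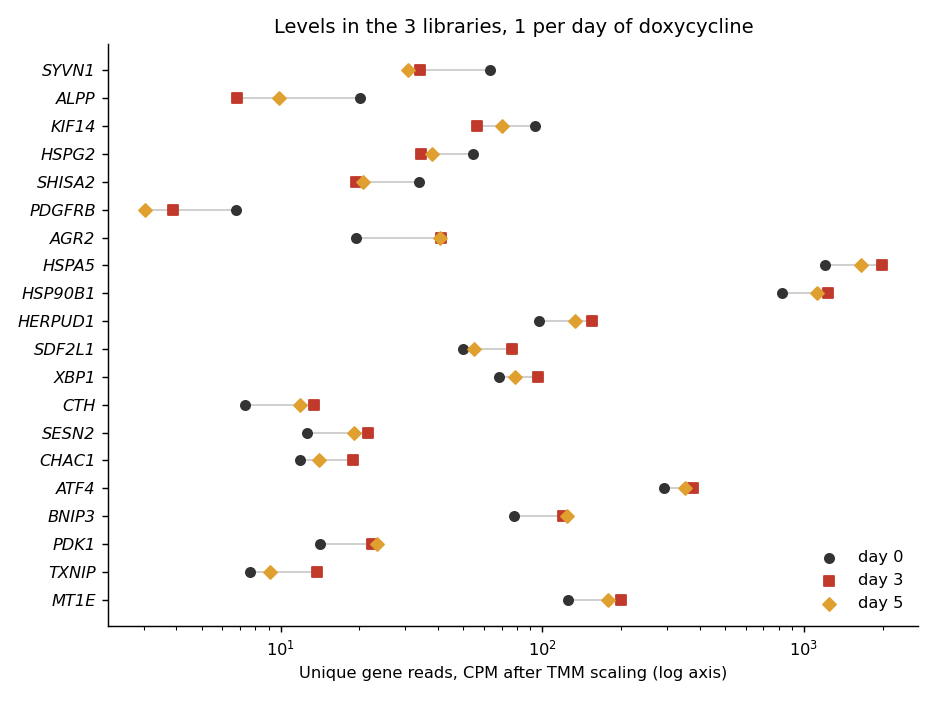
Unique-read level in CPM (log axis) of 20 named genes at day 0 (circles), day 3 (squares) and day 5 (diamonds), 1 library a day, with no error bars because there were no replicates. SYVN1 went from 63.1 to 34.0 CPM by day 3 and AGR2 from 19.4 to 41.2 CPM, while HERPUD1 stood at 96.8, 155 and 133 CPM.

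The day 5 values are given beside those of day 3 because both comparisons use the same day 0 library. Among the lower genes named here, ONECUT2, a homeobox transcription factor, had 240, 126 and 248 reads at days 0, 3 and 5, with log2 ratios to day 0 of -0.91 at day 3 and -0.22 at day 5. ZNF280C, a zinc finger gene, had 285, 143 and 315 reads, and log2 ratios of -0.98 and -0.12. SHISA2, which holds back the maturation of WNT and FGF receptors, had 647, 368 and 474 reads, and log2 ratios of -0.80 and -0.71. The first 2 genes were thus closer to day 0 in the day 5 library, and SHISA2 was low in both. Among the higher genes, TXNIP, an inhibitor of thioredoxin, had 147, 261 and 209 reads, with log2 ratios of 0.84 and 0.24.

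Glycolysis and hypoxia genes were above their day 0 level almost throughout. Of 39 listed genes 34 were tested and 33 were above day 0, with a median log2 ratio of 0.27, and the median was also 0.27 with the length and GC trends removed. The 3 called higher, against 0.495% of all tested genes, were ANGPTL4, BNIP3 and PDK1. ANGPTL4, a secreted inhibitor of lipoprotein lipase, had 87 reads at day 0, 158 at day 3 and 174 at day 5 (log2 ratio 0.87 at day 3, interval 0.49 to 1.27). BNIP3, a mitochondrial protein of mitophagy, had 1500, 2278 and 2854 reads (0.62, interval 0.52 to 0.71). PDK1, the kinase that holds back pyruvate dehydrogenase, had 271, 423 and 536 reads (0.65, interval 0.43 to 0.88). In all 3 both doxycycline libraries were above day 0. PFKFB4, which raises a glycolytic activator, and VEGFA, the angiogenic growth factor, had log2 ratios of 0.54 and 0.53. The 16 tested glycolysis genes lay between 0.03 and 0.47 with none called. Their median was 0.30 at day 3 and -0.01 at day 5, while that of the 18 tested hypoxia-induced genes was 0.25 and 0.28. MXI1 was the 1 gene below day 0, at -0.28.

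Nuclear genes for translation and respiration lay mostly above day 0, by small ratios. All 57 tested cytosolic ribosomal protein genes of 79 listed were above day 0, from 0.15 to 0.43, and every one of these intervals excluded 1. Their median was 0.31, but none was called at 1.5-fold, and the other 22 listed genes had too few uniquely placed reads. The 63 tested nuclear genes of oxidative phosphorylation had a median of 0.26, and 62 were above day 0. The 55 tested mitochondrial ribosomal protein genes had a median of 0.21 with 52 above day 0, and the 26 tested proteasome genes 0.17 with 24 above. These are short genes, and with the length and GC trends removed the medians were 0.21, 0.13, 0.09 and 0.09 in the order given. The 19 tested cytosolic tRNA synthetases, of 20 listed, were all above day 0 with a median of 0.17, and removing the trends left 0.17. GARS, the glycyl-tRNA synthetase, was highest of these at 0.39. The 12 tested protein-coding genes of the mitochondrial genome, which encode core subunits of the respiratory chain, had a median of -0.19, with 3 above and 9 below day 0. Their median exon length was 734 bases, and with the length and GC trends removed their median ratio was -0.41.

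**Figure D3:**
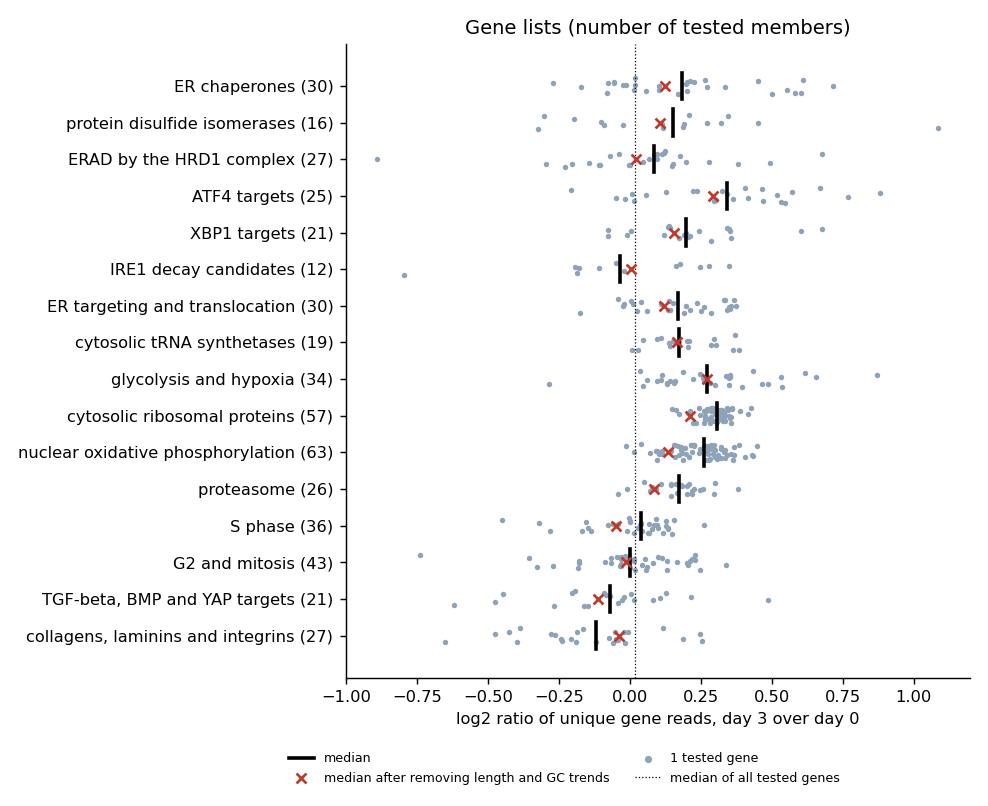
Log2 ratios of unique reads (day 3 over day 0) of the tested members of 16 gene lists (grey points), with the list median (black bar) and the median after removal of exon length and GC trends (red cross); the dotted line is the median of all tested genes, 0.02. ATF4 targets have the highest bar (0.34), ribosomal protein genes form the tightest group, and the collagen, laminin and integrin list has the lowest bar (-0.12).

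Several other higher genes fell outside these pathways. Among metallothioneins, small zinc and copper binding proteins, MT1E had 2396, 3791 and 4090 reads at days 0, 3 and 5 (log2 ratio 0.68 at day 3, interval 0.60 to 0.75). MT1X had 619, 923 and 1325 reads (0.59), and MT2A had a log2 ratio of 0.45. These 3 were the tested members of 8 listed; they are near copies of each other, and uniquely placed reads made up 95.7% of MT1X reads and 99.9% of MT1E reads. KRT19, a keratin of simple epithelia, had 1710, 2587 and 2345 reads (0.61, interval 0.52 to 0.70). CXCL8, the neutrophil chemokine interleukin-8, had 82, 141 and 199 reads (0.79, interval 0.39 to 1.21). CCL2, a monocyte chemokine and another NF-kB target, stood on the other side with 137, 80 and 162 reads (-0.76, interval -1.18 to -0.35). The 10 tested NF-kB targets of 20 listed had a median of 0.02. KLF9, a transcription factor that responds to glucocorticoids, had a log2 ratio of 0.75, PARD6A, a cell polarity protein, 0.78, and AKR1C2, an aldo-keto reductase of the NRF2 programme, 0.70.

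ALPP had the lowest ratio of all tested genes. It encodes placental alkaline phosphatase, a membrane-anchored enzyme. It had 387, 129 and 228 unique reads at days 0, 3 and 5, or 20.2, 6.79 and 9.90 CPM, and day 3 was the lowest of the 3. The day 3 level was 33.7% of that at day 0 (log2 ratio -1.57, interval -1.87 to -1.28), and all of its reads were in exons. Its near copy ALPPL2 and the relatives ALPI and ALPL had too few reads to be tested. The gene's span on chromosome 2 (232378534 to 232382889) overlaps another gene.

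Lower genes included some for matrix, adhesion and growth regulation. HSPG2, which encodes the basement membrane proteoglycan perlecan, had 1038, 655 and 870 reads at days 0, 3 and 5 (log2 ratio -0.65 at day 3, interval -0.79 to -0.51). FAT1, a giant cadherin, was the most strongly counted of the lower genes, at 711, 469 and 545 CPM (log2 ratio -0.60). SMAD6, an inhibitor of BMP signalling, had 462, 298 and 317 reads (-0.62, interval -0.83 to -0.41). In all 3 genes both doxycycline libraries were below day 0. With the length and GC trends removed, the day 3 log2 ratios were -0.43 for HSPG2 and -0.39 for FAT1, under 1.5-fold, and -0.67 for SMAD6. The collagens, laminins and integrins had 27 of 55 listed genes tested, 23 of them at or below day 0, and a median of -0.12. HSPG2 alone was called lower among them, where 0.731% of all tested genes were. LAMA5 and LAMC1, laminin chains, had log2 ratios of -0.43 and -0.40. This list had a median exon length of 8188 bases, and with length and GC trends removed its median was -0.04. Targets of the growth regulator YAP had 10 of 13 listed genes tested and a median of -0.11, with 0 of 10 above the median of all tested genes. TEAD1, a DNA-binding partner of YAP, was lowest at -0.45, and CTGF, a secreted matrix protein, had -0.27. The median of the 10 with the trends removed was -0.10. Other roles in the same list differed: 7 tested TGF-beta targets had a median of 0.08 with 5 above day 0, and 4 tested BMP targets, SMAD6 included, had -0.12.

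Few cell cycle genes lay far from day 0. KIF14, a kinesin needed for cytokinesis, had 1806, 1072 and 1622 reads at days 0, 3 and 5 (log2 ratio -0.74 at day 3, interval -0.85 to -0.63). It was the 1 called gene among 43 tested G2 and mitosis genes of 48 listed, where 0.731% of all tested genes were called lower. The median of the 43 was 0.00. The proliferation marker MKI67 had a log2 ratio of -0.33 and ASPM, a spindle pole protein, -0.36, while AURKB, a mitotic kinase, had 0.34. With the length and GC trends removed these were -0.15, -0.18 and 0.17 in the order given. The 16 tested cyclins and kinases had a median of 0.12, or 0.03 with the trends removed, and the 27 tested spindle and kinetochore genes had -0.03 either way. Among 36 tested S phase genes of 48 listed none was called and the median was 0.04; MCM10, a replication initiation factor, was lowest at -0.45.

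Other stress and metabolic lists had medians from 0.04 to 0.18, against 0.02 over all tested genes. The p53 targets had a median of 0.18 in 16 tested genes with none called; GADD45A, a growth arrest gene, was highest at 0.49 and CDKN1A, the cell cycle inhibitor p21, had 0.28. The NRF2 and antioxidant genes had a median of 0.16 in 20 genes, with GCLM, a glutathione synthesis subunit, lowest at -0.32. AKR1C2 was the 1 called higher, where 0.495% of all tested genes were. Cholesterol and fatty acid synthesis genes had a median of 0.06 in 26 genes, autophagy and lysosome genes 0.04 in 33, cytosolic heat shock proteins 0.08 in 18, immediate early genes 0.09 in 15 and the BCL2 family 0.08 in 8. By TPM, where the median of all tested genes was -0.08, the p53 and NRF2 medians stayed above 0 and the other 5 medians just given were below 0, as were those of the ERAD, UPR regulator and vesicle coat lists given earlier. A set of 207 tested ZNF genes, chosen after their values were seen, had a median of -0.08, with 1 higher and 7 lower, where 0.495% and 0.731% of all tested genes were called.

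Intron reads were lower at day 3 over most of the genes that had enough of them. Among uniquely placed gene reads, introns took 4.70% at day 0, 3.80% at day 3 and 4.70% at day 5, so the day 3 library stood apart from both others. Of 3355 tested genes with a mean of at least 50 intron reads, 631 were lower (18.8%) and 21 higher (0.626%), and the median log2 ratio was -0.30. In 3260 genes with enough of both kinds of read, the intron ratio was below the exon ratio in 2746. The interval of the difference excluded 0 with the exon ratio above in 1219 genes and with it below in 35. Of 616 such genes whose intron reads were lower, 610 had exon reads within 1.5-fold. Over all 7872 genes tested on exon reads 98.7% were within 1.5-fold, so this count does not set the 616 apart. When intron reads were scaled to each library's own intron total, the median became -0.04 and the calls 191 lower (5.69%) and 102 higher (3.04%). The share of RNA that was unspliced or nuclear in each library was not measured, and its part in these ratios was not tested.

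Single genes differed far more in introns than in exons. FYN, a Src family kinase, had 82 intron reads at day 0 and 27 at day 3 (log2 ratio -1.57), while its exon reads were 647 and 759 (0.24). The exon ratio of FYN exceeded its intron ratio by 1.82 (interval 1.17 to 2.54). NOD1, a sensor of bacterial peptidoglycan, had 80 and 25 intron reads (-1.645) against 136 and 128 exon reads (-0.07). TWSG1, a BMP-binding protein whose span overlaps no other gene, had 113 and 40 intron reads (-1.47) against an exon ratio of -0.10. The pattern was opposite in a few genes. RIPOR3 had 208 and 82 exon reads (-1.32) with 61 and 58 intron reads (-0.06), and KIF14 had 1753 and 1017 exon reads (-0.77) with 53 and 55 intron reads (0.07). Among the highest intron ratios were MRPL54, a mitochondrial ribosomal protein gene (0.96), and AHSA1, an activator of Hsp90 (0.75), whose exon ratios were 0.09 and 0.27.

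**Figure D4:**
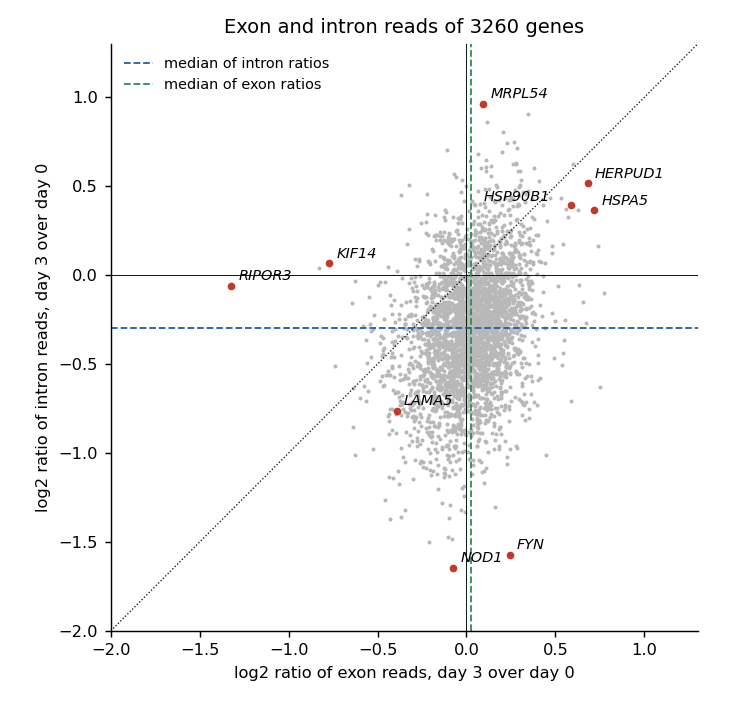
Log2 ratios (day 3 over day 0) of exon reads (horizontal) and intron reads (vertical) of 3260 genes with enough of both; the dotted line marks equal ratios and the dashed lines the medians of 0.03 (exon) and -0.30 (intron). Most points lie under the dotted line, with FYN and NOD1 far below it and RIPOR3 and KIF14 above it.

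Intron reads also set some of the calls on whole-gene reads. In 9 of the 59 lower genes and 1 of the 40 higher genes, at least 50% of the day 0 reads were in introns. The median share of day 0 reads in introns was 8.58% for the lower genes, 4.19% for the higher genes and 4.57% for all tested genes. PECAM1, an endothelial adhesion molecule, went from 118 to 43 intron reads while its exon reads were 41 and 31 (log2 ratio -0.38). The 6 endothelial markers, PECAM1 included, summed to 1.43 TPM at day 0 and 0.881 at day 3, with CDH5 and EMCN listed at 0 in both. KANTR had 129 and 49 intron reads and 44 and 40 exon reads (-0.12), and SRPX2 had 112 and 55 intron reads and 23 and 24 exon reads (0.07). SPAG6, among the higher genes, had 76 and 128 intron reads and 2 and 1 exon reads, and by TPM the direction of SRPX2 and of SPAG6 was the opposite. These 4 genes overlap other genes in the tables, so the origin of their intron reads is uncertain. Of the lower genes, 46 had enough exon reads to be tested on them and 38 were also lower by exon reads; of the higher genes, 36 of 37 were also higher.

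The ratios followed gene length. Across the 8076 tested genes the Spearman correlation of the log2 ratio with exon length was -0.51; genes in a library share its depth and preparation and are not independent replicates. Medians went from 0.19 in the shortest of 8 groups of genes to -0.16 in the longest. The median exon length was 2482 bases for the 40 higher genes, 7137 for the 59 lower genes and 5248 for all tested genes. After smooth trends on exon length and on GC content were taken out, 28 genes were higher and 42 lower, of which 20 and 33 were among those called before. AGR2 (1.00), HSPA5 (0.67), HERPUD1 (0.67), SYVN1 (-0.91) and ALPP (-1.67) kept log2 ratios past 1.5-fold, while SDF2L1 (0.39), DNAJB9 (0.53), CHAC1 (0.52), PARD6A (0.58), MT1E (0.42), MT1X (0.32), KRT19 (0.47), HSPG2 (-0.43) and FAT1 (-0.39) did not. PDK1, with 14883 bases of exon, went the other way, from 0.65 to 0.88. The part of RNA quality or library preparation in this trend was not tested.

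**Figure D5:**
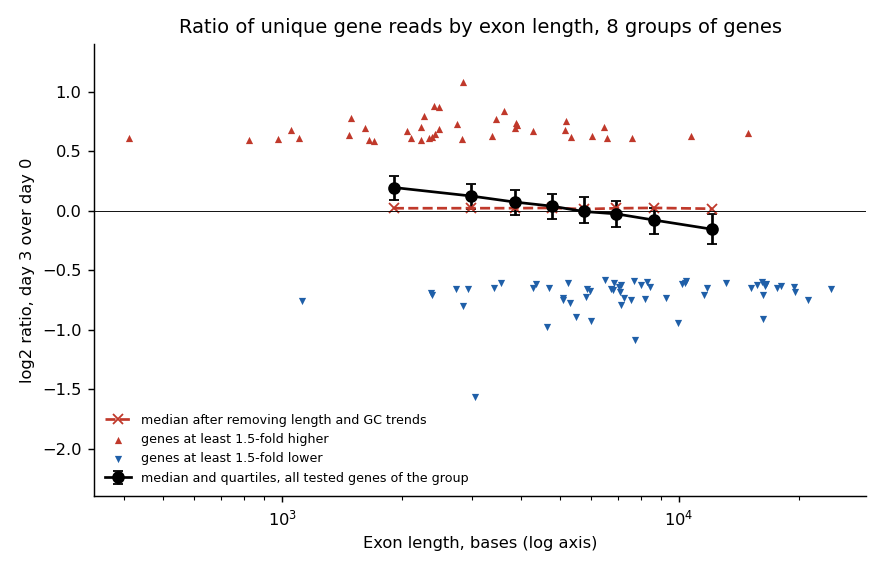
Log2 ratio of unique reads (day 3 over day 0) against exon length (log axis): black points are medians of 8 equal groups of tested genes with bars for the quartiles, red crosses the medians after removal of length and GC trends, and triangles the called genes. Medians fall from 0.19 to -0.16 with length, and most lower genes (blue) sit to the right of most higher genes (red).

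Markers were checked against the labelled tissue. Of 20 colon and intestinal marker genes 3 reached 1 TPM at day 0. The intestinal factor CDX2 and the brush border protein VIL1 had 0 reads in both libraries, which allows up to 0.157 CPM at day 0 and 0.158 CPM at day 3 by a limit of 3 reads. CEACAM5, the carcinoembryonic antigen, had 0 and 1 reads. Summed over the list, the level was 31.7, 25.01 and 32.2 TPM at days 0, 3 and 5. The labelled colon identity was therefore not seen in its defining markers, and the cells are called here by their label only. Of 18 epithelial markers 12 reached 1 TPM at day 0, led by KRT7 at 935 TPM, but EPCAM was at 0.724 and CDH1 at 0.0984 TPM; of 20 mesenchymal markers 14 did, led by VIM at 4016 TPM. The summed epithelial level was 2595 TPM at day 0 and 2590 at day 3, and the mesenchymal one 5379 and 5373. Neither sum thus shifted by the size of the ratios called above. VIM alone made 4016 and 4130 TPM of the mesenchymal sums, so these do not describe the other mesenchymal markers. Of the VIM reads 57.1% were uniquely placed. Within the epithelial list KRT19 was called higher, and within the mesenchymal list PDGFRB was called lower, as given above. Of 7 liver markers, SERPINA1 was at 799, 664 and 693 TPM at days 0, 3 and 5, while ALB, FGB, TTR and APOA1 had 0 reads each at day 0. At day 3 these 4 had 0, 0, 6 and 2 reads and at day 5 they had 114, 122, 101 and 61. Some other markers also gained reads: the fibrillar collagen gene COL3A1 had 1, 24 and 4 reads at days 0, 3 and 5, COL1A2 had 0, 10 and 6, and the leukocyte gene PTPRC had 1, 9 and 22. Apart from SERPINA1, these genes were picked after their values were seen and were under the read minimum, and the part of such transcripts in the ratios above was not tested. Mitochondrial genes took 0.773%, 0.661% and 0.777% of unique reads.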

How the data were processed

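RNA-seq tables of 3 libraries were used, 1 for each of days 0, 3 and 5. RNAiso Plus was used for extraction and a SMARTer mRNA kit for the libraries, per the labels' protocols. The count in each deposited table, per the file headers, is that of unique, total, exon, junction or intron reads of a gene. The authors also deposited a TPM value for each gene, used here for markers and as an alternative. For the aligner and the counter, a name is not given in the sources used here. Build mm10, of the mouse, is named in the submitters' processing notes, but all 58243 identifiers are human Ensembl identifiers, and 97.6% of the 57980 that are in GENCODE 29 have the same start and end there, so coordinates are given as GRCh38. A further table of the whole series, with 3 sample columns, was not used.

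edgeR 4.0.16 in R 4.3.3 gave the TMM factors (1.01, 0.971 and 1.02) that scaled the counts, with DESeq2 1.42.0 size factors as an alternative. Intervals came from scipy 1.17.1 and length and GC trends from lowess in statsmodels 0.14.6 (span 0.3, 3 rounds), with Python 3.11.15, pandas 2.3.3 and matplotlib 3.10.9. The ratios, their intervals and the 1.5-fold calls were tested on simulated counts that held counting error only, with the depth factors taken as known. The scaling, the removal of trends, the exon minus intron differences and the promoter search were not part of that simulation. No replicate error could be estimated from 1 library a day.

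The 37 gene lists, the tested set and the rule for named genes were chosen with earlier results of these data known. The rule names SYVN1, HSPA5, HERPUD1, AGR2, ALPP, ATF4, XBP1 and DDIT3. It adds the 15 highest and 15 lowest ratios, the 8 highest and 8 lowest intron ratios, the 6 largest exon minus intron differences in each direction, from each list up to 5 genes furthest from a ratio of 1 and any at 1.5-fold, and genes beside the thresholds. CALR, CANX, FICD, SYNPO and ZNF143 are named for their promoter elements and their values, and FAT1 and MXI1 were chosen after their values were seen. Alternatives were other scalings, total reads, TPM with 0.5 added, a prior count of 5, other minimums of reads or uniqueness, a stricter interval and removal of trends. Protein sequence ends were not analysed here.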

Additional observations from a re-analysis of the deposited data

How the results depend on the processing

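Depth limits genes of 100 to 200 reads most, with log2 intervals reaching a median of 0.34 to either side, and 1 library a day leaves the spread between cultures unknown. No paired analysis was possible because each day had 1 library. For whole-gene reads, where 40 genes were higher and 59 lower, counts were 44 and 57 with DESeq2 size factors, 37 and 56 with a prior count of 5, 40 and 58 with total gene reads and 33 and 48 among genes at least 98% unique. They were 22 and 89 without TMM, 77 and 103 at a mean of 50 reads, 22 and 30 at a mean of 200, 52 and 91 with no limit on uniqueness, 13 and 102 by the authors' TPM, and 4 and 8 when the interval had to exclude 1.5-fold. At 2-fold, 1 higher and 2 lower became 2 and 8 at a mean of 50 reads; 1 was lower at a mean of 200 (ALPP) and 1 among genes at least 98% unique (PECAM1); TPM gave 0 higher and 3 lower, and an interval excluding 2-fold 0 and 1. For exon reads, 55 higher and 45 lower became 33 and 76 without TMM, 103 and 71 at a mean of 50 and 27 and 27 at a mean of 200. For intron reads, 21 higher and 631 lower became 13 and 793 without TMM, 102 and 191 with intron totals, 66 and 1126 at a mean of 20 intron reads, 2 and 227 at 100 and 9 and 199 among genes that overlap no other gene. The 1219 genes with the exon ratio above the intron ratio became 421 with intron totals, 1706 at a mean of 20 intron reads, 691 at 100 and 401 without overlaps; the changes in minimum or overlap change the number of genes tested. TPM moved the median of all genes from 0.02 to -0.08 and turned the sign of the medians of 14 lists, among them cytosolic heat shock proteins (-0.0458), immediate early genes (-0.0473) and COPII, COPI and cargo transport (-0.0172), ERAD (-0.0311), UPR regulators (-0.0432), cholesterol and fatty acid synthesis (-0.0643), autophagy and lysosome (-0.0615), S phase (-0.0792), G2 and mitosis (-0.1169), the BCL2 family (-0.0245) and NF-kB targets (-0.1451). Among named genes whose interval excluded 1, it turned the sign of MCL1 (-0.0329), SPAG6 (-0.14), C16orf91 (-0.0144), MRPL54 (-0.0392) and SRPX2 (0.0306); removal of length and GC trends turned that of MRPL54 (-0.0644). Removal of trends also turned 4 list medians, among them S phase (-0.0478), G2 and mitosis (-0.0139) and IRE1 decay candidates (0.0034), and library totals without TMM turned 7, among them S phase (-0.0151) and G2 and mitosis (-0.053). The cause was not tested.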
